A study of Rattus norvegicus with 10 samples.

Results

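The genes described here encode the nuclear subunits of mitochondrial oxidative phosphorylation, with a few assembly factors and an inhibitor that carry the same name prefixes. They were chosen by symbol alone, as every measured gene whose symbol begins with Nduf, Uqcr, Atp5 or Sdha to Sdhd, or with Cox followed by 4 to 8. This gave 79 genes, measured by 91 probes, of the 13426 named genes and 40945 probes with a value on every array. They comprise 30 genes of complex I, 4 of complex II, 7 of complex III, 16 of complex IV, 14 of complex V, the complex V inhibitor Atp5if1 and 7 assembly factors of complexes I and II. The RefSeq table of the rat lists 122 protein-coding genes with these prefixes, and those without a matched probe were not analysed here. None of the 13 subunits encoded by mitochondrial DNA was matched to a probe.

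Liver RNA was profiled from male Wistar rats in 3 groups, with 1 one-colour array per rat. The control group (n = 3) was not irradiated. The TBI group (n = 3) received total-body irradiation from a cobalt source at 6.5 Gy by the labels (the text of the study gives a slightly lower dose). The MASM + TBI group (n = 4) was irradiated likewise after 30 mg/kg/day of MASM, a derivative of the plant alkaloid matrine, had been given into the stomach for 3 days. All livers were taken at 24 h. The study asked which of the changes after irradiation were altered by MASM given beforehand. MASM without irradiation was not analysed here, so an effect of MASM alone cannot be told apart from its effect in irradiated rats.

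Oxidative phosphorylation passes electrons from NADH through complex I, or from succinate through complex II, to complex III, cytochrome c and complex IV, where oxygen is reduced. Complexes I, III and IV pump protons across the inner mitochondrial membrane, and complex V, the ATP synthase, lets them flow back to make ATP. Hepatocytes are rich in mitochondria and use this ATP for glucose output, urea synthesis and the secretion of plasma proteins. Most subunits are encoded in the nucleus and imported, and a small set is encoded by mitochondrial DNA.

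The labels were checked with Cdkn1a, the p53 target that blocks the cell cycle after DNA damage. Its log2 signal was 8.01 to 8.84 in control rats, 13.47 to 14.06 in TBI rats and 12.80 to 13.58 in MASM + TBI rats. The share of spots well above background was 57.2 to 59.9% on control arrays, 64.1 to 70.1% on TBI arrays and 56.2 to 60.2% on MASM + TBI arrays. The 6 hepatocyte markers (Alb, Apoa1, Ttr, Tf, Cps1 and Serpina1) were above background on every array, and none passed the test. Of the 6 T and B lymphocyte markers measured, 4 fell in TBI (Cd3e, Cd3g, Cd2 and Cd79b) and 3 in MASM + TBI (Cd3e, Cd3g and Cd79b), with a summed signal of 594 to 727 in control, 189 to 374 in TBI and 194 to 384 in MASM + TBI rats. No Kupffer cell, endothelial or erythroid marker passed the test. Their summed signal was 41200 to 56900 in control, 39000 to 71700 in TBI and 31700 to 39200 in MASM + TBI rats for the 4 Kupffer cell markers, 2040 to 2680, 2970 to 3550 and 2890 to 4020 for the 3 endothelial markers, and 1840 to 4580, 1220 to 2560 and 1150 to 1720 for the 3 erythroid markers. The endothelial sum was thus higher in every irradiated rat than in the controls, and the Kupffer cell and erythroid sums were lower in every MASM + TBI rat than in the controls. A sum gives most weight to its brightest marker. The median log2 differences from control in TBI and MASM + TBI were 0.12 and -0.37 for the endothelial markers. They were 0.2 and -0.15 for the Kupffer cell markers and -1.14 and -1.29 for the erythroid markers. Of the 3 endothelial markers, 1 was higher and 1 lower in MASM + TBI at an unadjusted limma p under 0.05. In whole liver, fewer cells of a type and less RNA per cell cannot be told apart, and the part of the cells these markers stand for in the results below was not tested. The 3 TBI arrays were alone on slide 2, so TBI and slide cannot be told apart. The controls shared slide 1 with MASM + TBI rat 3, and the other MASM + TBI rats were on slide 3.

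As a group the oxidative phosphorylation genes were close to their control level in both irradiated groups under quantile normalization. On the log2 scale, their median difference was -0.02 for TBI minus control, 0.05 for MASM + TBI minus control and 0.05 for MASM + TBI minus TBI, beside -0.01, 0.00 and 0.01 over all named genes. With each array scaled to its 75th percentile instead, the medians of the 79 genes were 0.04, 0.18 and 0.13. Above 0 in MASM + TBI were then 70 of the 79 genes, where quantile normalization gave 49. Over all probes the medians were -0.07, -0.01 and 0.08 with that scaling and -0.03, 0.00 and 0.04 with quantile normalization. Over probes well above background on every array they were 0.01, 0.04 and 0.04 with that scaling and -0.02, 0.02 and 0.04 with quantile normalization. Each gene was read by its brightest probe, and a change was called by limma at a Benjamini-Hochberg adjusted p under 0.05 over all probes. Against control, 1 gene fell in TBI (Atp5f1b), where 6.63% of all named genes were called. In MASM + TBI 1 gene rose against control (Ndufaf4), where 3.7% of all were called. For MASM + TBI minus TBI none of the 79 passed, where 1.08% of all were called. The 2 comparisons with control share the control rats, and their values are given side by side.

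At an unadjusted limma p under 0.05 without a fold threshold, 3 of the 79 genes were higher and 8 lower in TBI than in control, where 25.3% of all named genes passed. For MASM + TBI minus control 8 were higher and 2 lower, where 20.5% passed, and for MASM + TBI minus TBI 9 were higher and 1 lower, where 16.5% passed. With the fold threshold of 1.5 used in the study added, 1, 1 and 2 of the 79 remained in the 3 comparisons, where 13.1%, 9.18% and 7.82% of all named genes remained. The shares of these genes were lower than the background share in each of these counts. No test of that difference was made.

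The estimates were also narrow. The difference from control lay within 1.2-fold for 68 of the 79 genes (86.1%) in TBI and 71 (89.9%) in MASM + TBI, beside 52.9% and 59.5% of all named genes. Between the irradiated groups it lay within 1.2-fold for 72 (91.1%), beside 63.7%. The whole 95% interval lay within 1.5-fold for 70 genes (88.6%) in TBI, 72 (91.1%) in MASM + TBI and 74 (93.7%) for MASM + TBI minus TBI, beside 41.5%, 47% and 49.9% of all named genes. These genes are bright: 74 of the 79 were well above background on all 10 arrays. The same held for 8439 of all named genes. Such intervals were found for 52.1%, 57.1% and 64.2% of these, and for 91.9%, 93.2% and 97.3% of the 74. Estimates lay within 1.2-fold for 59.6%, 62.8% and 73.4% of the 8439 and for 87.8%, 90.5% and 93.2% of the 74. These sets share that flag and were not matched for signal. The median standard error was 0.10, 0.09 and 0.09 log2 units for the 79 genes. It was 0.15, 0.14 and 0.14 for the 8439 genes and 0.18, 0.16 and 0.16 for all named genes. Cox7c, Cox4i2, Cox8b and Uqcrq had wider intervals in every comparison.

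**Figure D1:**
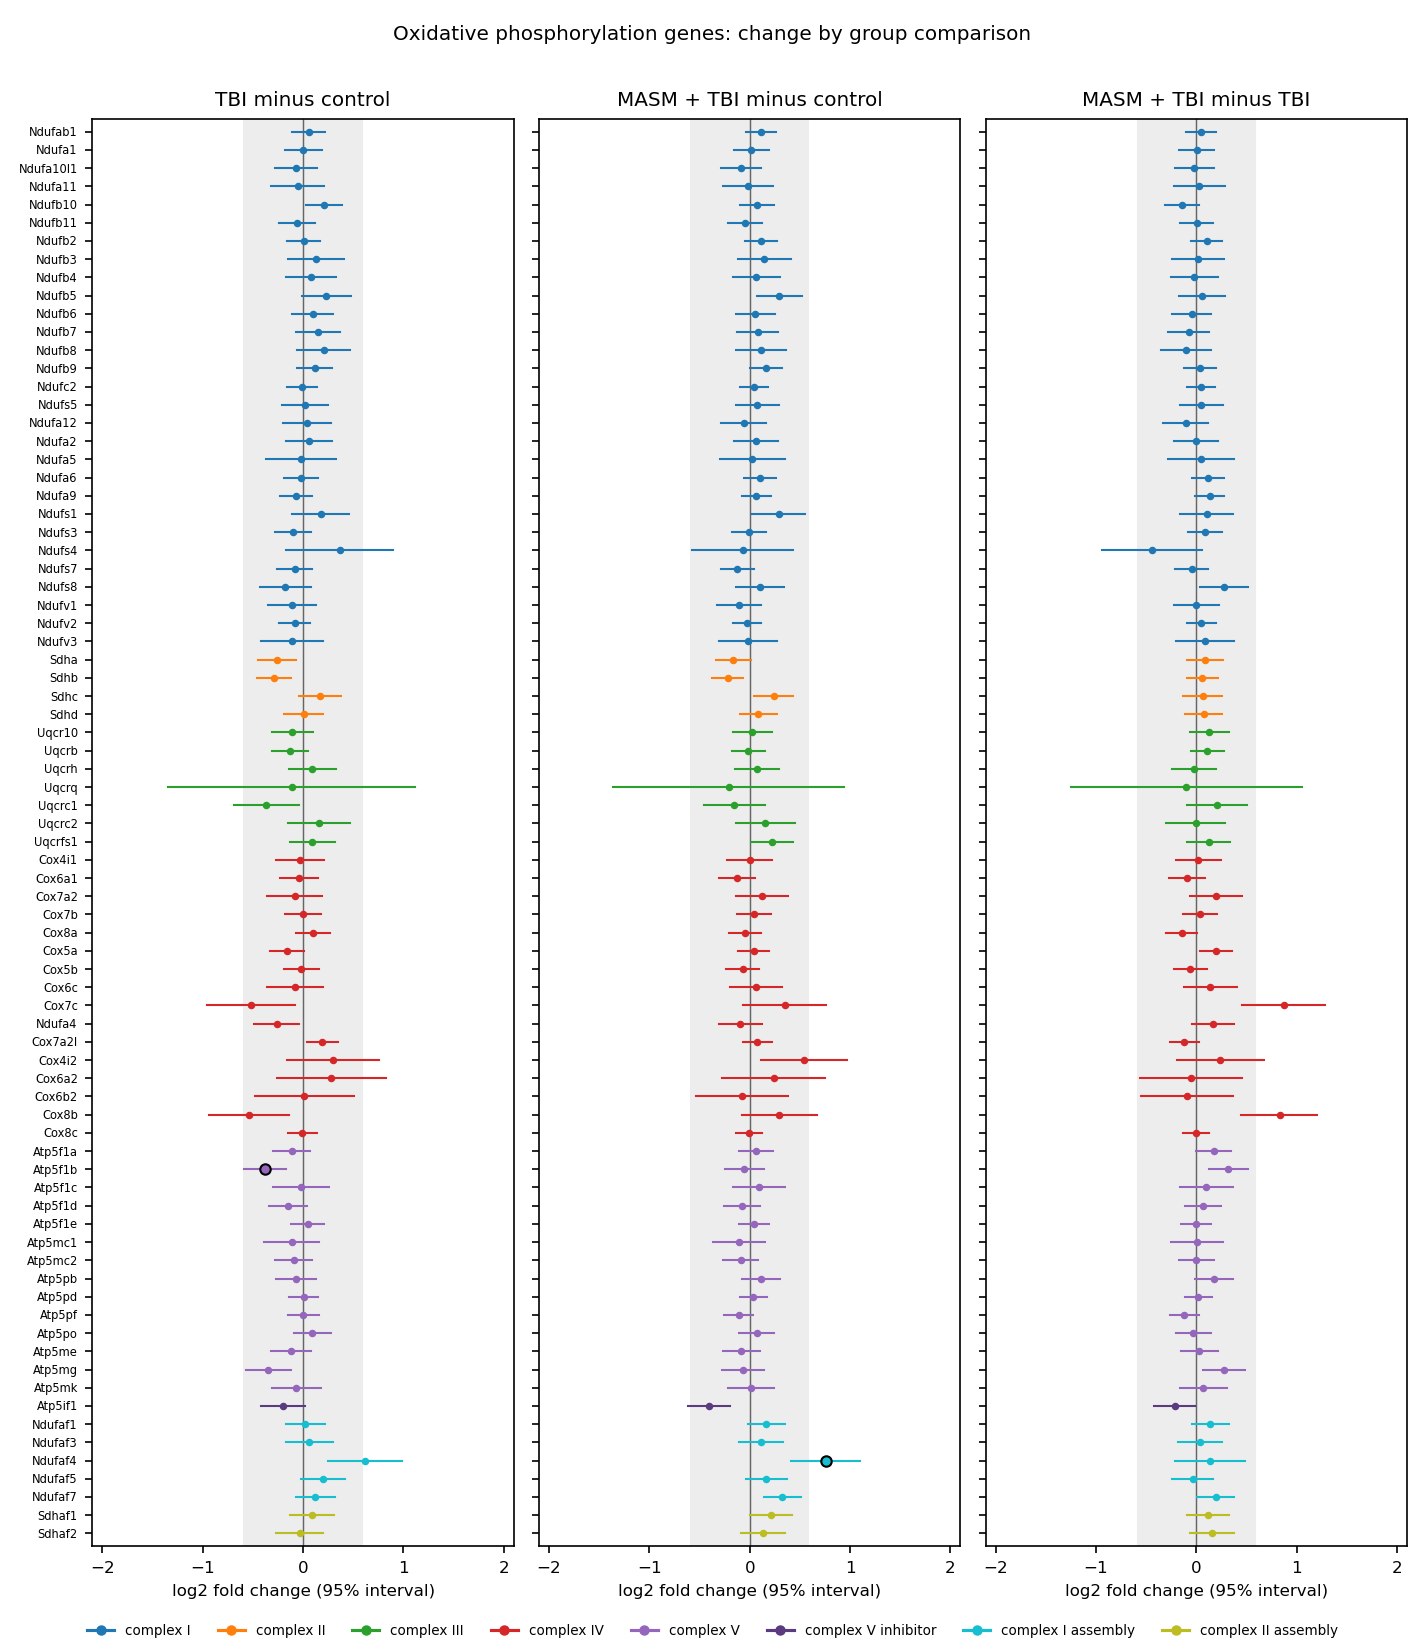
Log2 fold change (x axis) with its 95% interval for 78 of the 79 genes (rows, coloured by complex) in the 3 comparisons. Grey bands mark 1.5-fold either way, and larger points ringed in black mark adjusted p under 0.05, which are Atp5f1b in TBI minus control and Ndufaf4 in MASM + TBI minus control. Uqcrq and Cox8c were well above background on no array, and Cox8b, Ndufs4 and Cox6b2 on some only.

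Sequence upstream of these genes was read from RefSeq (build GRCr8), in windows of 300 bases from 250 before the gene start to 50 after it, which were found for 71 of the 79 genes. NRF1 and the ETS factor GABP are known activators of respiratory chain genes. The NRF1 core GCATGCGC was present on either strand in 11 of the 71 windows (15.5%) and in 2.66% of 27457 windows of all genes. The ETS core CCGGAAG was present in 23 (32.4%) and in 9.22% of all. The E-box CACGTG, a motif searched for comparison, was present in 5 (7.04%) and in 6.65% of all. These are counts of letters, with no test and no evidence of binding. The windows of the gene that rose, the gene that fell and the complex II gene with the lowest adjusted p are shown, with matches in capitals. Ndufaf4 lies at chr5:43401545-43401844, Atp5f1b at chr7:1099808-1100107 and Sdhb at chr5:158547684-158547983, all on the plus strand.
Ndufaf4: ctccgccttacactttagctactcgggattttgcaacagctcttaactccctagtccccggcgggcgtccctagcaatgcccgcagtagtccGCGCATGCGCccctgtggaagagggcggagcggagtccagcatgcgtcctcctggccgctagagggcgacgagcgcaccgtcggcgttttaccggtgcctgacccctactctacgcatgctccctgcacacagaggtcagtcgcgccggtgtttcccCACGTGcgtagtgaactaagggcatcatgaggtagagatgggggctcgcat
Atp5f1b: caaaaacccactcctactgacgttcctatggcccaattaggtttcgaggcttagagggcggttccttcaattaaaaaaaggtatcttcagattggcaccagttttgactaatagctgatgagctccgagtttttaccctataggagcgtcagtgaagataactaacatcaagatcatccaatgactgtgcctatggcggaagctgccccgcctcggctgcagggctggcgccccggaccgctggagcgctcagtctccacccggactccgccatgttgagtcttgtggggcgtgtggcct
Sdhb: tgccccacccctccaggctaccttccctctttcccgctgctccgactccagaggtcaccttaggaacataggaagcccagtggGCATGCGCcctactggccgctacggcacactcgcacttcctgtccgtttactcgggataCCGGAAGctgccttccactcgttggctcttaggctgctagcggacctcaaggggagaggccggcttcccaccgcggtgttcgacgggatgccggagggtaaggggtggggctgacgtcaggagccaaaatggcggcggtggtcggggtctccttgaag
In Ndufaf4 the run GCGCATGCGC holds 2 overlapping matches of the NRF1 core, 1 per strand, and the E-box lies at the gene start. In Sdhb the NRF1 core precedes the ETS core. The Atp5f1b window held none of the 3 motifs, which says only that these letters are not in this window.

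Complex I, the NADH dehydrogenase, was represented by 30 genes, and none passed the adjusted test in any comparison. Its median log2 difference was 0.00 in TBI and 0.06 in MASM + TBI against control, and 0.04 between the irradiated groups. The 15 genes of the membrane arm, which holds the proton channels, had a median of 0.08 in TBI, with 11 above 0. The 14 genes of the peripheral arm, which carries electrons from NADH through the flavin and iron-sulfur clusters, had a median of -0.08, with 10 below 0. In MASM + TBI the medians were 0.07 and 0.01. No test of the difference between the arms was made.

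In the membrane arm the highest differences in TBI were those of the accessory subunits Ndufb5 and Ndufb8. Ndufb5 had log2 signals of 13.94, 13.64 and 13.59 in control rats 1 to 3, 13.96, 13.91 and 13.99 in TBI rats, and 14.06, 13.93, 13.95 and 14.11 in MASM + TBI rats. Control rat 1 overlapped both irradiated groups, and the other controls lay below them. The difference from control was 0.23 ± 0.11 (SE) in TBI (limma adjusted p = 0.229) and 0.29 ± 0.10 in MASM + TBI (adjusted p = 0.174). Ndufb8 differed from control by 0.21 ± 0.12 in TBI and 0.11 ± 0.11 in MASM + TBI, and its groups overlapped. Ndufb10, a further accessory subunit, was picked out after its values were seen, as the only complex I gene at an unadjusted p under 0.05 in TBI. It read 12.83, 12.68 and 12.85 in control, 13.01, 13.06 and 12.91 in TBI, and 12.81, 12.85, 12.82 and 12.93 in MASM + TBI rats. All TBI rats lay above the controls, by 0.21 ± 0.08 (limma adjusted p = 0.163), and the MASM + TBI rats overlapped both groups.

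Ndufs8, an iron-sulfur subunit of the peripheral arm on the path of electrons to ubiquinone, had the lowest difference in TBI among the complex I genes. It read 11.22, 11.03 and 11.40 in control, 11.17, 11.03 and 10.92 in TBI, and 11.24, 11.28, 11.36 and 11.40 in MASM + TBI rats. The TBI rats lay below all MASM + TBI rats and overlapped the controls. The difference between the irradiated groups was 0.28 ± 0.11 (limma adjusted p = 0.228), and that of TBI from control -0.18 ± 0.11. A second Ndufs8 probe differed by 0.15 ± 0.10 between the irradiated groups.

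Ndufs1, the largest iron-sulfur subunit, was 0.18 ± 0.12 from control in TBI and 0.29 ± 0.12 in MASM + TBI (adjusted p = 0.256). Its 4 MASM + TBI rats (8.78 to 9.03) lay above the controls (8.61 to 8.74), and the TBI rats (8.61 to 9.06) overlapped both. Ndufv1, which holds the flavin, differed by -0.11 ± 0.11 in TBI and -0.11 ± 0.10 in MASM + TBI, with overlap. Ndufs4 was well above background on all 3 TBI arrays and on no control or MASM + TBI array, so its probe gives only a bound. By that bound the TBI mean was 1.06-fold that of control or more, and 1.12-fold that of MASM + TBI or more, and neither difference passed the test. The 95% intervals of the measured log2 differences held 0, at -0.17 to 0.90 for TBI minus control and -0.94 to 0.06 for MASM + TBI minus TBI. Control rat 1 (4.26) read above every TBI rat (3.90 to 4.17), so TBI and control overlapped.

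Ndufc2, a membrane arm subunit, was read by a pair of probes that differed, and it was picked out after its values were seen. The brightest probe was flat, with 13.34 to 13.39 in control, 13.31 to 13.41 in TBI and 13.35 to 13.45 in MASM + TBI rats. The dimmer probe read 7.80, 8.26 and 8.06 in control, 7.22, 7.23 and 7.24 in TBI, and 8.86, 9.07, 8.21 and 8.76 in MASM + TBI rats. By that probe every TBI rat lay below the other groups, and MASM + TBI rat 3, on the slide of the controls, lay within the control range. Its log2 difference between the irradiated groups was 1.5 ± 0.20 (limma adjusted p = 0.0119), against 0.05 ± 0.06 by the brightest probe. TBI minus control was -0.81 ± 0.21 by the dimmer probe (adjusted p = 0.062) and -0.01 ± 0.07 by the brightest. Which transcript each probe reads was not tested, since no probe sequence was used here.

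Assembly factors build the complexes without staying in them, and 7 factors of complexes I and II carry these prefixes. Their values were above control in all 7 genes in MASM + TBI (median log2 difference 0.16) and in 6 of 7 in TBI (median 0.09). The 25 assembly factors with other names had medians of 0.07 and -0.10, and among them the complex I factors Acad9, Tmem126b, Timmdc1, Ecsit and Nubpl differed from control by -0.39, -0.15, -0.13, -0.13 and -0.01 in TBI. Ndufaf4, a complex I assembly factor, passed the test. Its brightest probe read 9.13, 9.01 and 8.91 in control, 9.93, 9.34 and 9.63 in TBI, and 9.73, 9.55, 9.88 and 9.93 in MASM + TBI rats. All 7 irradiated rats lay above all controls, and the irradiated groups overlapped.

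Ndufaf4 rose by 0.76 ± 0.15 in MASM + TBI (1.69-fold, limma adjusted p = 0.0387, n = 4 and 3). In TBI the difference was 0.62 ± 0.16 (1.53-fold, adjusted p = 0.0645), and between the irradiated groups it was 0.14 ± 0.15 (adjusted p = 0.68). The other 2 Ndufaf4 probes gave 0.63 ± 0.19 and 0.45 ± 0.19 in TBI, and 0.58 ± 0.18 and 0.64 ± 0.18 in MASM + TBI, with no overlap with the controls. MASM + TBI rat 3, on the slide of the controls, was 0.86 above the control mean. The call was lost with slide as a fixed block (adjusted p = 0.121) or when any control rat was left out (adjusted p = 0.0667, 0.117 and 0.14 without control rats 1, 2 and 3). It was also lost without TBI rat 3 (adjusted p = 0.0507) or MASM + TBI rat 1, 3 or 4 (adjusted p = 0.098, 0.0864 and 0.0943), and also by the methods' t-test (0.103) and with the mean of all probes (0.0534). In all it held in 11 of 22 alternatives, with an estimate of 0.58 to 0.86.

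**Figure D2:**
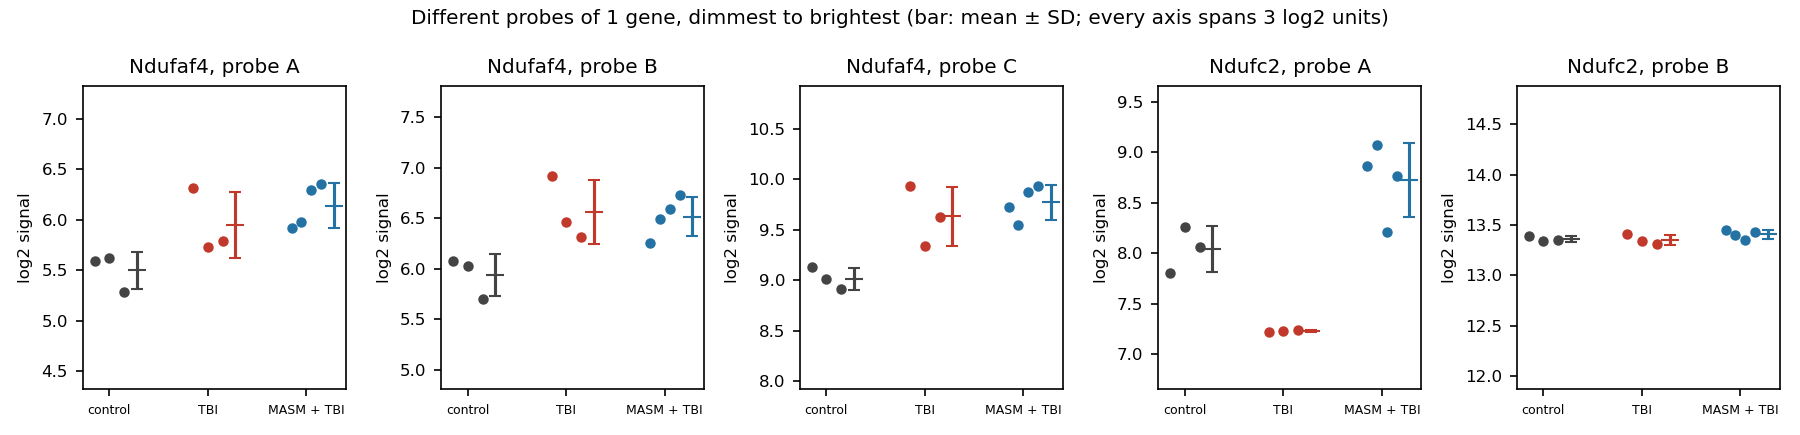
Log2 signal (y axis, quantile normalized) of each rat by group for the 3 probes of Ndufaf4 and the 2 of Ndufc2, with the mean ± SD beside the points. The Ndufaf4 probes show both irradiated groups above control, while the Ndufc2 probes differ, the dimmer one (A) being lowest in TBI and the brighter one (B) flat.

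Ndufaf7, a methyltransferase that acts on a complex I subunit during assembly, read 7.21, 7.07 and 7.35 in control, 7.27, 7.36 and 7.38 in TBI, and 7.58, 7.47, 7.54 and 7.55 in MASM + TBI rats. All MASM + TBI rats lay above all others. The difference from control was 0.32 ± 0.08 in MASM + TBI (limma adjusted p = 0.0791) and 0.12 ± 0.09 in TBI (adjusted p = 0.426). Ndufaf1, Ndufaf3, Ndufaf5, Sdhaf1 and Sdhaf2 were 0.11 to 0.21 above control in MASM + TBI and -0.03 to 0.20 in TBI, with adjusted p of 0.262 or more.

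Complex II, succinate dehydrogenase, also works in the citrate cycle. Its catalytic subunits were below control and its membrane anchors at or above control in both irradiated groups, though none of the 4 genes passed the adjusted test. Sdhb, the iron-sulfur subunit, read 13.49, 13.43 and 13.55 in control, 13.30, 13.13 and 13.17 in TBI, and 13.24, 13.30, 13.26 and 13.27 in MASM + TBI rats. All 7 irradiated rats lay below all controls, and the irradiated groups overlapped. The difference was -0.29 ± 0.07 in TBI (limma adjusted p = 0.0606) and -0.22 ± 0.07 in MASM + TBI (adjusted p = 0.136).

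Sdha, the flavoprotein that oxidises succinate, read 14.67, 14.77 and 14.60 in control, 14.48, 14.30 and 14.49 in TBI, and 14.54, 14.55, 14.49 and 14.48 in MASM + TBI rats. Again no irradiated rat reached the lowest control. The difference was -0.26 ± 0.08 in TBI (limma adjusted p = 0.108) and -0.17 ± 0.08 in MASM + TBI (adjusted p = 0.32). MASM + TBI rat 3, on the slide of the controls, differed from the control mean by -0.19 for Sdha and -0.23 for Sdhb.

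Sdhc, a membrane anchor that helps to bind ubiquinone, read 12.09, 11.99 and 11.98 in control, 12.25, 12.16 and 12.17 in TBI, and 12.26, 12.22, 12.12 and 12.43 in MASM + TBI rats. All irradiated rats lay above all controls. The difference was 0.17 ± 0.09 in TBI (limma adjusted p = 0.294) and 0.24 ± 0.09 in MASM + TBI (adjusted p = 0.193). The other anchor, Sdhd, differed by 0.01 ± 0.09 and 0.08 ± 0.08, and overlapped the controls. Between the irradiated groups all 4 genes differed by 0.06 to 0.09, and their 95% intervals lay within 1.5-fold.

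**Figure D3:**
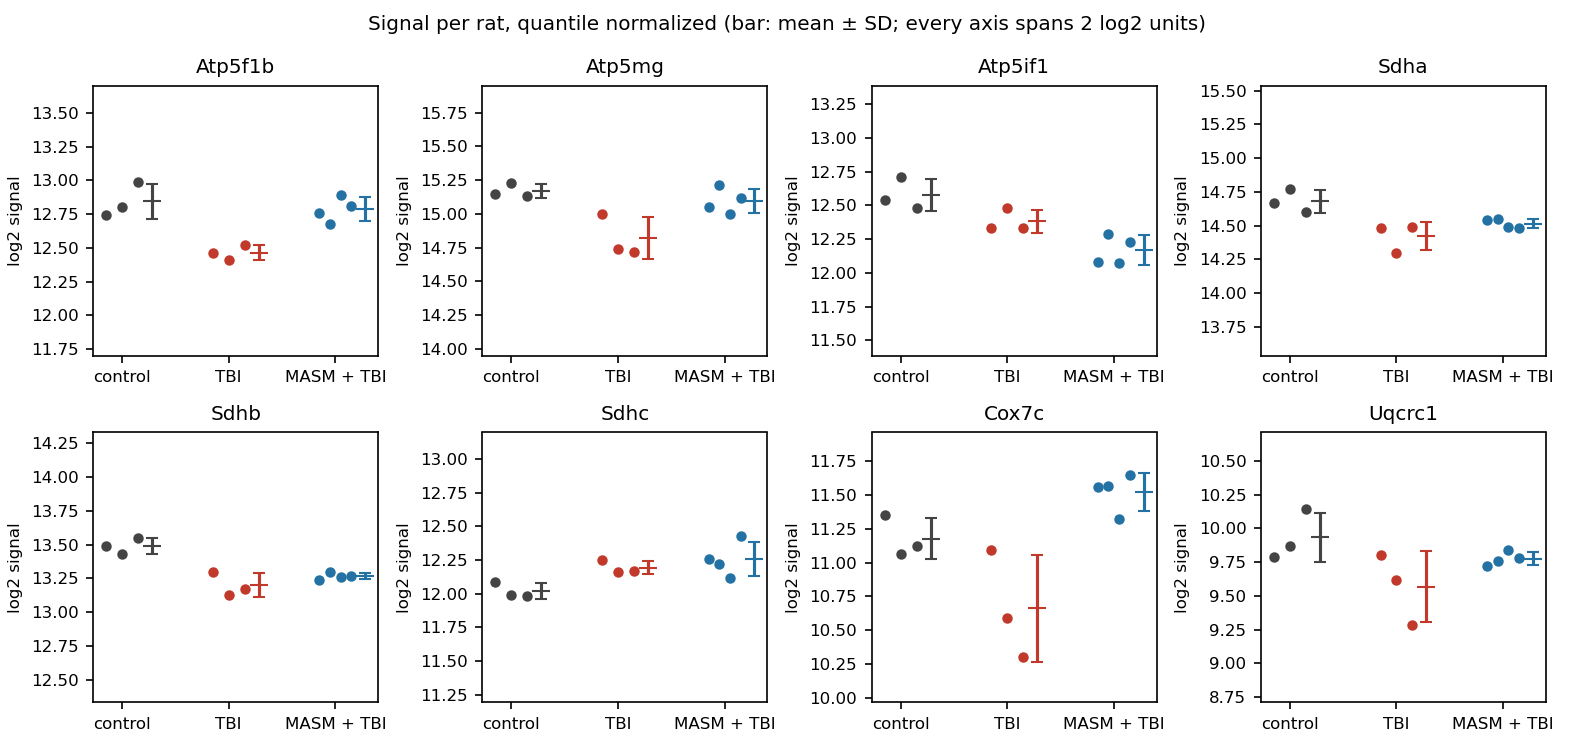
Log2 signal (y axis, quantile normalized, each axis spanning the same range) of each rat by group for 8 genes, with the mean ± SD beside the points. Sdha and Sdhb are below control and Sdhc above it in both irradiated groups, Atp5f1b is lowest in TBI, and Atp5if1 is lowest in MASM + TBI.

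Complex III, the cytochrome c reductase, had a median of -0.11 in TBI and 0.02 in MASM + TBI against control over 7 genes, of which none passed the test. Without Uqcrq, which was well above background on no array, these medians were -0.01 and 0.05 over 6 genes, a choice made after seeing the data. Uqcrc1, a core protein, read 9.79, 9.87 and 10.14 in control, 9.80, 9.62 and 9.28 in TBI, and 9.72, 9.76, 9.84 and 9.78 in MASM + TBI rats. TBI rat 1 lay within the control range and the other TBI rats below it. Its difference was -0.37 ± 0.14 in TBI (limma adjusted p = 0.164) and -0.16 ± 0.13 in MASM + TBI. The partner core protein Uqcrc2 differed by 0.16 ± 0.14 and 0.15 ± 0.13.

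Uqcrfs1, the Rieske iron-sulfur protein, read 13.20, 13.18 and 13.10 in control, 13.28, 13.07 and 13.42 in TBI, and 13.43, 13.28, 13.40 and 13.42 in MASM + TBI rats. The MASM + TBI rats lay above the controls, by 0.22 ± 0.09 (limma adjusted p = 0.28), and the TBI rats overlapped both. Uqcrb and Uqcrh, small accessory subunits, differed from control by -0.13 ± 0.08 and 0.09 ± 0.10 in TBI, and by -0.02 ± 0.07 and 0.07 ± 0.10 in MASM + TBI. Uqcrq was well above background on no array and gives no level.

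Complex IV, the cytochrome c oxidase, had medians of -0.02 in TBI, 0.04 in MASM + TBI and 0.03 between the irradiated groups over 16 genes, none of which passed the test. The forms used in most tissues were close to control: Cox4i1, Cox6a1, Cox7a2, Cox7b and Cox8a differed from control by -0.13 to 0.12 in both irradiated groups. Cox4i1 in particular differed by -0.03 ± 0.10 in TBI and 0.00 ± 0.10 in MASM + TBI. Cox5a, a matrix-side subunit, read 13.57 to 13.68 in control, 13.41 to 13.58 in TBI and 13.65 to 13.71 in MASM + TBI rats. The irradiated groups did not overlap, with a difference of 0.20 ± 0.07 (limma adjusted p = 0.194).

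Cox7c, a small subunit, had the highest difference of the 79 genes between the irradiated groups. It read 11.35, 11.06 and 11.12 in control, 11.09, 10.59 and 10.30 in TBI, and 11.56, 11.57, 11.32 and 11.65 in MASM + TBI rats. TBI rats 2 and 3 lay below all others, and TBI rat 1 lay within the control range. The difference was 0.87 ± 0.18 for MASM + TBI minus TBI (1.82-fold, limma adjusted p = 0.0611), -0.52 ± 0.19 for TBI minus control (adjusted p = 0.151) and 0.35 ± 0.18 for MASM + TBI minus control (adjusted p = 0.393). Without TBI rat 1 the first value was 1.08 (adjusted p = 0.0124), and over 21 alternatives its adjusted p was 0.0124 to 0.432. Ndufa4, now assigned to complex IV, differed by -0.26 ± 0.10 in TBI (adjusted p = 0.157) and -0.10 ± 0.09 in MASM + TBI.

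Among the forms tied to other tissues, Cox4i2, the lung form known for its response to low oxygen, read 10.20, 10.54 and 10.01 in control, 10.54, 10.87 and 10.23 in TBI, and 10.69, 10.98, 10.93 and 10.56 in MASM + TBI rats. All MASM + TBI rats lay above the controls, while the TBI rats overlapped both. The difference was 0.54 ± 0.19 in MASM + TBI (limma adjusted p = 0.182) and 0.30 ± 0.20 in TBI. Cox6a2, a muscle form, differed by 0.28 ± 0.24 and 0.24 ± 0.22, with overlap.

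Cox8b, a second muscle form, was dim: 0 control, 3 TBI and 3 MASM + TBI arrays were well above background, with signals of 3.67 to 4.15, 3.15 to 3.51 and 3.97 to 4.46. MASM + TBI exceeded TBI by 0.83 ± 0.16 (limma adjusted p = 0.0504). As a bound, the MASM + TBI mean was 1.16-fold that of control or more (limma adjusted p = 0.432). The 95% interval of that measured log2 difference from control, -0.08 to 0.67, held 0. With the normexp background correction the difference between the irradiated groups was 0.08, the lowest over 20 alternatives, whose limma adjusted p ranged from 0.0133 to 0.284. Of the 7 striated muscle markers, 5 were well above background on no array and none passed the test, and their summed signal was 249 to 287 in control, 246 to 286 in TBI and 342 to 396 in MASM + TBI rats. The median log2 difference of the 7 was -0.54 in TBI and 0.04 in MASM + TBI against control, and 0.44 between the irradiated groups. At an unadjusted limma p under 0.05, 3 were lower in TBI than in control, and 2 were higher and 1 lower in MASM + TBI. Whether muscle RNA has a part in the Cox8b values was not tested. Cox6b2 differed by 0.01 ± 0.22 and -0.08 ± 0.20, and Cox8c was well above background on no array.

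Cox7a2l, which joins complexes III and IV in supercomplexes, read 11.22, 11.20 and 11.17 in control, 11.37, 11.46 and 11.34 in TBI, and 11.32, 11.23, 11.25 and 11.29 in MASM + TBI rats. The TBI rats were highest, the controls lowest and the MASM + TBI rats between them, with no overlap. The differences were small, at 0.19 ± 0.07 for TBI minus control (limma adjusted p = 0.138) and 0.07 ± 0.06 for MASM + TBI minus control.

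Complex V, the ATP synthase, had a median of -0.08 in TBI, with 10 of 14 genes below 0, and -0.03 in MASM + TBI. Atp5f1b, the catalytic beta subunit of the head of the synthase, fell in TBI. It read 12.74, 12.80 and 12.99 in control, 12.46, 12.41 and 12.52 in TBI, and 12.76, 12.68, 12.89 and 12.81 in MASM + TBI rats. All TBI rats lay below all rats of the other groups, which overlapped each other.

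Atp5f1b fell by 0.38 on the log2 scale in TBI, with a standard error of 0.09 (limma adjusted p = 0.0497), to 0.769 of control. With the replicate number as a block the estimate was the same and the call was lost (adjusted p = 0.082), which left no called gene in TBI. In MASM + TBI the difference from control was -0.06 ± 0.09 (adjusted p = 0.84). MASM + TBI minus TBI was 0.32 ± 0.09, which did not pass the test (adjusted p = 0.12). The TBI call lay at the threshold: it held in 7 of 21 alternatives, with an adjusted p of 0.0113 to 0.266 and an estimate of -0.43 to -0.31, and was lost when any single control rat (adjusted p = 0.0708, 0.0963 and 0.144 without rats 1, 2 and 3) or TBI rat (0.089, 0.114 and 0.0542) was left out, or MASM + TBI rat 1, 2 or 4 (0.0793, 0.0635 and 0.0727).

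The other head subunits moved less. Atp5f1a, the alpha subunit, differed from control by -0.11 ± 0.08 in TBI and 0.06 ± 0.08 in MASM + TBI, and Atp5f1e, the epsilon subunit, by 0.05 ± 0.07 and 0.04 ± 0.07. Atp5mg, a small membrane subunit of the synthase dimer, read 15.15, 15.23 and 15.13 in control, 15.00, 14.74 and 14.72 in TBI, and 15.05, 15.21, 15.00 and 15.12 in MASM + TBI rats. All TBI rats lay below the controls, with TBI rat 1 level with MASM + TBI rat 3. The difference was -0.35 ± 0.10 in TBI (limma adjusted p = 0.0796), -0.07 ± 0.09 in MASM + TBI and 0.28 ± 0.09 between them (adjusted p = 0.182). Atp5mc1 and Atp5mc2, which encode the same ring protein, differed by -0.11 to -0.09 in both irradiated groups, and the stalk subunit Atp5po by 0.09 ± 0.08 and 0.07 ± 0.08.

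Atp5if1, the inhibitor that stops the synthase from running backwards and using up ATP, read 12.54, 12.71 and 12.48 in control, 12.33, 12.48 and 12.33 in TBI, and 12.08, 12.29, 12.07 and 12.23 in MASM + TBI rats. The MASM + TBI rats lay below all TBI rats, and the TBI rats at or below the lowest control. The difference from control was -0.41 ± 0.09 in MASM + TBI (0.753 of control, limma adjusted p = 0.0535) and -0.20 ± 0.10 in TBI (adjusted p = 0.262). MASM + TBI minus TBI was -0.21 ± 0.09 (adjusted p = 0.283). MASM + TBI rat 3 differed from the mean of the controls on its slide by -0.50.

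Averaged over the genes of each complex, the rats of the 3 groups overlapped for complexes I to IV. Without Uqcrq, the complex III means were 0.03 to 0.09 in MASM + TBI rats, above the controls (-0.04 to 0.02), and -0.11 to 0.04 in TBI rats, which overlapped both. For complex V, the mean deviation from control was -0.06, -0.11 and -0.12 in TBI rats, below the controls (-0.05 to 0.04) and the MASM + TBI rats (-0.04 to 0.03). The mean includes Atp5f1b and Atp5mg, and the median over the same 14 genes overlapped, at -0.15 to -0.03 in TBI and -0.05 to 0.04 in control. For the 7 assembly factors it was 0.22, 0.12 and 0.13 in TBI and 0.25, 0.18, 0.28 and 0.36 in MASM + TBI rats, above the controls (-0.06 to 0.03). That mean includes Ndufaf4, and the median over the 7 genes was 0.05 to 0.14 in TBI, overlapping the controls (-0.04 to 0.06), and 0.14 to 0.31 in MASM + TBI. These means and medians are descriptions with no test.

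**Figure D4:**
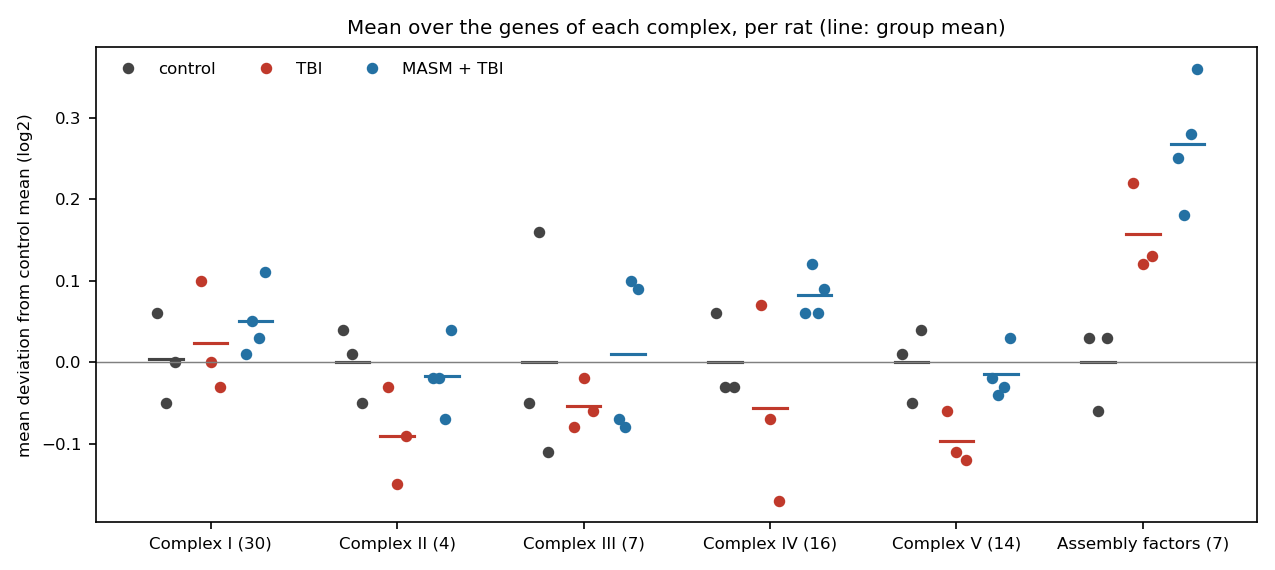
Mean log2 deviation from the control mean (y axis) over the genes of each complex, 1 point per rat, coloured by group, with lines at the group means. By these means the 7 assembly factors with these prefixes sit above control in both irradiated groups (the 25 with other names, not drawn, had a median of -0.10 in TBI) and complex V below control in TBI, while the medians of both overlap control in TBI. The groups overlap in complexes I to IV, where complex III includes the dim Uqcrq.

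Of 96 measured genes in 5 lists around the complexes, 4 (4.17%) passed the test in TBI, 4 (4.17%) in MASM + TBI and none between the irradiated groups, beside the 6.63%, 3.7% and 1.08% of all named genes given above. Of 25 assembly factors with other names, 2 (8%) fell in TBI and none passed in the other comparisons: Cox19, a copper-related factor of complex IV, by 0.48 on the log2 scale (limma adjusted p = 0.0419), and Atpaf1, which helps to assemble the head of complex V, by 0.38 (adjusted p = 0.0332). With the replicate number as a block, a fit of these lists added after seeing the data, both calls were lost (limma adjusted p = 0.0863 and 0.098). All 4 calls of the lists in MASM + TBI were lost with that block as well, with values given below. Atpaf1 read 6.25, 6.19 and 6.07 in control, 5.81, 5.79 and 5.78 in TBI, and 6.05, 6.11, 6.16 and 6.23 in MASM + TBI rats. Its TBI rats lay below all others, as those of Atp5f1b did. None of 18 electron carriers, coenzyme Q enzymes and entry points, and none of 14 inner membrane carriers and channels, passed in any comparison.

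Of 20 genes of the citrate cycle and pyruvate dehydrogenase, Pdk2, a kinase that inactivates pyruvate dehydrogenase, fell in both irradiated groups. It read 13.66, 13.67 and 13.93 in control, 13.11, 13.13 and 13.30 in TBI, and 13.04, 13.14, 13.20 and 13.03 in MASM + TBI rats. All irradiated rats lay below the controls, by 0.57 ± 0.10 in TBI (log2 difference -0.57, limma adjusted p = 0.019) and 0.65 ± 0.10 in MASM + TBI (-0.65, adjusted p = 0.0118). No other kinase of pyruvate dehydrogenase passed the test, so the fall is stated for Pdk2 alone. None of the 20 passed between the irradiated groups. Mdh2, the mitochondrial malate dehydrogenase, rose by 0.47 ± 0.10 in MASM + TBI (adjusted p = 0.0471), and its difference in TBI was 0.30 ± 0.11 (adjusted p = 0.14). With the replicate number as a block, the MASM + TBI calls of Pdk2 and Mdh2 were lost (limma adjusted p = 0.0523 and 0.131).

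Of 19 genes of mitochondrial biogenesis and mitochondrial DNA expression, Pprc1, a coactivator related to PGC-1 alpha, rose by 0.84 ± 0.16 in TBI (limma adjusted p = 0.0238), with 8.04, 8.20 and 8.11 in control, 9.29, 8.75 and 8.85 in TBI, and 8.52, 8.25, 8.66 and 8.31 in MASM + TBI rats. The TBI rats were highest, and the MASM + TBI rats lay between them and the controls. That call was lost with the replicate block (adjusted p = 0.0708), while that of Pdk2 in TBI was kept (adjusted p = 0.0378). In MASM + TBI 2 genes rose: Esrra, a nuclear receptor that drives respiratory genes, by 0.38 ± 0.07 (adjusted p = 0.0275), and Tefm, an elongation factor of mitochondrial transcription, by 0.46 ± 0.10 (adjusted p = 0.0444). In TBI these differed by 0.27 ± 0.07 (adjusted p = 0.0776) and 0.34 ± 0.10 (adjusted p = 0.0932). The MASM + TBI calls of Esrra and Tefm were lost with the replicate block (limma adjusted p = 0.149 and 0.185). Ppargc1a, Nrf1, Gabpa and Tfam did not pass the test in any comparison, and none of the 19 passed between the irradiated groups. At an unadjusted limma p under 0.05, 3 of the 19 were higher and 2 lower than control in each irradiated group. Of all named genes, 25.3% passed that threshold in TBI and 20.5% in MASM + TBI.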

How the data were processed

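Liver RNA of 10 male rats was labelled with Cy3 and hybridised to 4 x 44K whole rat genome arrays, 1 per rat. The authors deposited spot intensity on a linear scale, background-subtracted by Feature Extraction 10.7.3.1 and not normalized between arrays; the deposited value table held the same intensities. Groups came from the labels, slides from the file headers. The 1639 control spots and outlier spots were left out. Signals were log2 transformed, normalized between arrays by quantiles as in the study, and averaged per probe. Of 41012 probes 40945 had a value on every array, and 16968 obtained a symbol from RefSeq accessions. Group means were fitted with limma 3.58.1 in R 4.3.3 over all arrays, with Benjamini-Hochberg adjustment over all probes and a threshold of 0.05; a gene was read by its brightest probe. The labels number the rats and name no litter or day, so p-values measure only the spread between these samples. Of the 79 genes, 38 have a pseudogene entry in RefSeq, and cross-hybridisation was not tested. Genes named singly by plan were those called, core subunits, isoforms with the inhibitor Atp5if1, and the 2 highest and 2 lowest in TBI per complex. The highest and lowest were taken among genes well above background on every array. The assembly factors other than Ndufaf4, and Ndufb10, Ndufc2, Ndufs4 and Uqcrq, were named beyond that plan. Control and TBI rats share replicate numbers in the labels, and their deviations from the group means correlated weakly for all 3 numbers (r 0.14 to 0.27). Correlations of rats with different numbers are not given here. Positions on the slide were 2, 4 and 3 for control rats 1 to 3 and 1, 3 and 2 for the TBI rats, in the same order. Number and position thus cannot be told apart. The value blocked on the number is given where it ends a call. The members and lists were chosen with earlier results of these data known. The counts cover all 79 genes, of which 1 is not reported singly here. Figures were drawn with matplotlib.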

Additional observations from a re-analysis of the deposited data

Results flagged for a closer look

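The spread of the 4 MASM + TBI rats was checked over 40 probes (those of the genes named singly by plan and both of Ndufc2). In 1 of these sets a rat lay far from the others, and chance flags about 5% of such sets. For Uqcrfs1, MASM + TBI rat 2 read 13.28 while the other rats of the group read 13.40 to 13.43, and this gap was 0.84 of the range of the group, above the critical value of 0.829.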

How the results depend on the processing

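The counts of called genes were small and moved with most choices, as did the share of all probes called, which is given in brackets. For TBI minus control, where 1 gene was called (5.63% of probes), the count was 2 with scaling to the 75th percentile (18.2%), 3 with normexp on median signals (5.42%), 2 over probes above background on all arrays (9.27%), 0 with only the 2 groups compared (2.37%), 0 by the methods' t-test (0.0244%, or 10 probes; 8 of the 79 genes at an unadjusted p under 0.05), 2 with a trended and robust prior (5.59%), 7 with slide as a random block (16.5%, with 6742 probes called in place of 2305; consensus correlation -0.13) and 2 with the mean of all probes of a gene (7.96% of genes). For MASM + TBI minus control, with 1 called (2.99%), it was 4 with normexp (4.15%), 2 over probes above background in a group (6.41%) or on all arrays (7.51%), 0 by the methods' t-test (0.0977%; 13 unadjusted), 2 with the trended prior (3.46%), 3 with slide as a random block (6.97%) and 0 with slide as a fixed block (1.31%). For MASM + TBI minus TBI, with 0 called (1.63%; 10 at an unadjusted p under 0.05), it was 3 with the 75th percentile (13.3%, with 5459 probes called in place of 666), 2 over probes above background in a group (2.24%), 1 on all arrays (2.02%), 3 with slide as a random block (5%) and 1 with the mean of all probes (Ndufc2; 0.79%). Leaving out 1 rat gave counts of 0 to 3, 0 to 1 and 0 to 2, with 3 and 2 reached without TBI rat 1. Requiring a fold change of at least 1.5 beside the adjusted p gave 0 for TBI minus control, and the methods' t-test at an unadjusted p with that fold gave 0 there and 1 (Cox8b) for MASM + TBI minus TBI. Scaling to the 75th percentile moved the medians to 0.04, 0.18 and 0.13, while the median of all probes was -0.07, -0.01 and 0.08; 70 of 79 genes were then above 0 in MASM + TBI, beside 49 with quantile normalization. Cox8c, well above background on no array, turned from 0.00 to 0.76 between the irradiated groups under that scaling. The cause of these moves was not tested. With the replicate block the counts were 0, 0 and 0 (2.57%, 0.728% and 0.0537% of probes). The numbers did not pair the MASM + TBI rats with control (r -0.10 to 0.36) or TBI rats (r -0.34 to 0.17), and 5 of 9 rats were closest to their own number; there the block gave adjusted p of 0.112 for Ndufaf4 in MASM + TBI minus control, ended all 4 calls of the lists around the complexes in that comparison (Pdk2 0.0523, Mdh2 0.131, Esrra 0.149 and Tefm 0.185, a fit added after seeing the data) and that of the lymphocyte marker Cd79b (0.0582), and gave 0.097 for the dimmer Ndufc2 probe in MASM + TBI minus TBI. With 3 or 4 arrays per group, the precision is limited by their number.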
